A study of Oryza sativa with 36 samples.

Results

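A set of 170 rice genes stood at 5 FPKM or more in the leaf library PB replicate 2 and below 0.1 FPKM in PB replicate 1, the other library of the same group. FPKM is the authors' count of sequenced fragments scaled by transcript length and library size. The 170 were found among 55986 listed genes and made up 1.20% of the 14188 genes at 5 FPKM or more in PB replicate 2. The genes were selected on their measured FPKM in both PB libraries, so every PB value below is a description, and calls that involve PB libraries support nothing about these genes. Outside PB, 156 of the 170 stayed below 1 FPKM in all 16 other libraries. Traces of these 156 genes were nevertheless unevenly spread, with counts for 41.0% to 50% of them in 6 libraries that all carry the replicate number 2, against 17.3% to 23.7% in the remaining 10.

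The study sequenced RNA from leaves of japonica rice of the cultivar TNG67, grown in a greenhouse to the tillering stage. There were 9 groups of 2 libraries, named PB, AMT+Hb, AMT+Ab, AgBi, AgTi, Ag, Callus+AM, Callus and Seedling. Plants came directly from seed or from calli that had received combinations of transformation treatments, and the labels do not expand the abbreviations PB, Hb, Ab, AMT, Bi, Ti, Ag and AM. That Seedling is the seed-grown group and the other 8 are regenerated is read from these names. The design text calls the pairs of a group biological replicates, but no label ties a library to a plant, so p-values measure the spread between these libraries. RNA was taken with either a column kit or Trizol, and the labels do not say which was used for which library.

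Rice leaves at tillering are vegetative organs, and their transcriptome is dominated by photosynthesis genes. Plant genomes also hold many genes that are transcribed in 1 organ, at 1 stage or under 1 stress and that lie near silence in a leaf. Assigning such genes to an organ or stage needs their identity. Neither the deposited tables nor the gene table used here paired any of the 170 identifiers with a name. No organ, stage or function is therefore given for a member, and the leaf label was not checked against marker genes. Chromosomes are read from the identifiers, in which the digits after Os give the chromosome.

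Depth was similar in the libraries that matter most here. PB replicate 1 held 31917683 counts and PB replicate 2 held 29256820. Across the 6 groups AMT+Hb, AMT+Ab, AgBi, AgTi, Ag and Callus+AM, the replicate 1 libraries held 26609812 to 33163869 counts and the replicate 2 libraries 27588858 to 33222427. Seedling and Callus were deeper, at 41582054 to 52643973. Every other group had fewer counts than Seedling in both of its libraries, Callus by the least. All of them therefore differ from Seedling in depth as well as in origin or treatment.

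In PB replicate 2 the 170 genes spanned more than 2 orders of magnitude. Their median was 12.9 FPKM, below the 18.3 FPKM of all genes at 5 FPKM or more in that library. Of the 170, 11 reached 100 FPKM, 22 reached 50 FPKM and 64 lay under 10 FPKM. Together they took 133584 counts, or 0.457% of the library. LOC_Os01g70440 on chromosome 1 alone held 18.8% of these counts, and the 10 highest genes held 42.8%. A bulk library cannot tell more cells that express a gene from more RNA per cell.

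In PB replicate 1 the same genes held 111 counts in all. There 116 of them had 0 counts and the other 54 had at most 7. Levels ran close to both bounds of the selection. The lowest PB replicate 2 levels inside it were 5.06 FPKM for LOC_Os01g34920, 5.08 for LOC_Os08g32750 and 5.14 for LOC_Os04g30960. Just outside lay LOC_Os03g25350 and LOC_Os12g13930, both at 4.99 FPKM, and LOC_Os04g55660 at 4.94. In PB replicate 1 the highest levels inside were 0.0985 FPKM for LOC_Os08g15545 and 0.0969 for LOC_Os07g26480. LOC_Os04g42210 and LOC_Os05g13850, both at 0.106 FPKM, lay just outside.

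An FPKM of 5 does not rest on the same evidence for every gene. Counts in PB replicate 2 ranged from 2 upward with a median of 346, and 9 genes had under 10 counts. LOC_Os05g25440 and LOC_Os06g40390 rested on 2 counts each, and LOC_Os08g11490, LOC_Os07g13050 and LOC_Os08g35200 on 3. These 5 were named after their counts were seen. The counts per FPKM, which rise with the length used in the FPKM, had a median of 0.491 relative to all genes at 5 FPKM or more in PB replicate 2 (quartiles 0.307 to 0.871, against 0.647 to 1.43). A given FPKM therefore rested on fewer counts for these genes than for most expressed genes of that library.

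**Figure D1:**
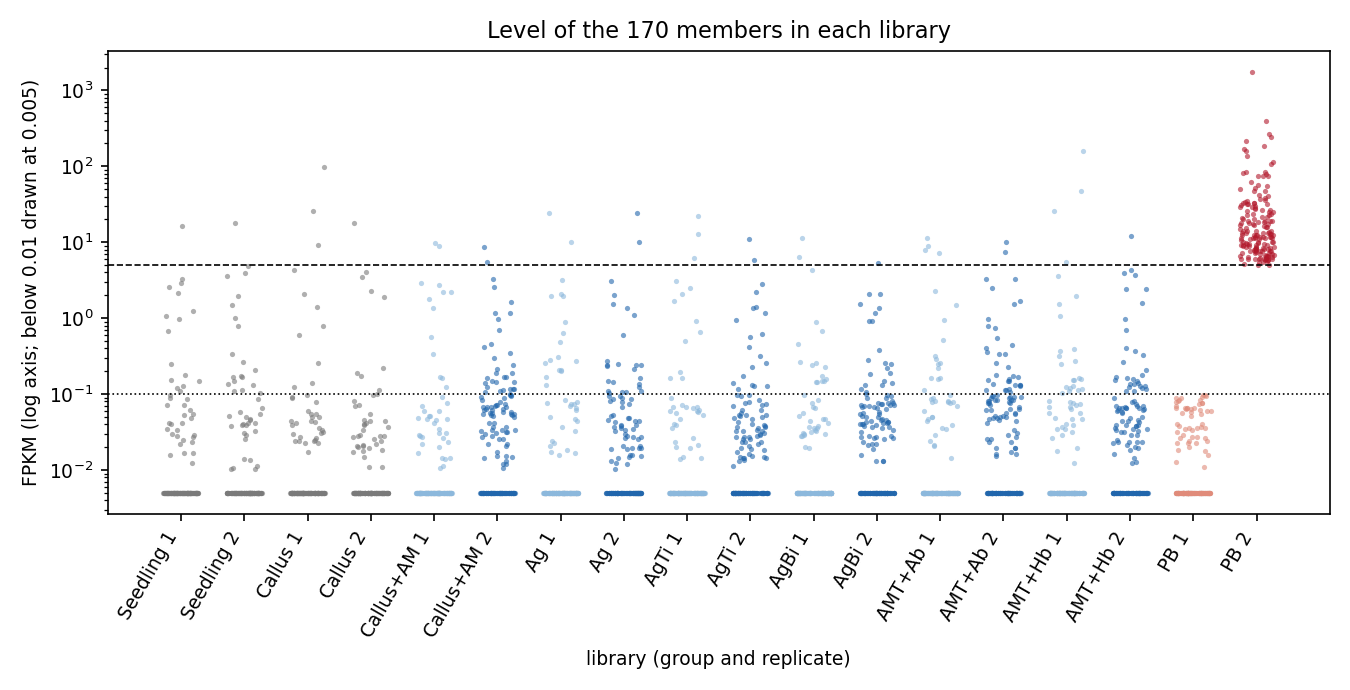
Level of each of the 170 genes (1 point per gene) in the 18 libraries, as FPKM on a log axis, with values below 0.01 drawn at 0.005. Grey marks Seedling and Callus, light blue replicate 1 and dark blue replicate 2 of 6 other groups, light red PB replicate 1 and dark red PB replicate 2; the dashed and dotted lines are the bounds of 5 and 0.1 FPKM, and outside PB replicate 2 only 7 genes reach 5 FPKM in any library other than PB.

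The 10 genes highest in PB replicate 2 were almost absent elsewhere. LOC_Os01g70440 stood at 1757 FPKM with 25179 counts. On the same chromosome, LOC_Os01g41140 stood at 394 FPKM and LOC_Os01g41170 at 246 FPKM. LOC_Os11g37280 on chromosome 11 reached 264 FPKM, LOC_Os03g56940 on chromosome 3 reached 184 FPKM and LOC_Os05g46530 on chromosome 5 reached 139 FPKM. The other 4 rested on few counts despite high FPKM. They were LOC_Os04g11130 with 215 FPKM from 262 counts, LOC_Os04g57270 with 170 FPKM from 171, LOC_Os07g15530 with 160 FPKM from 223 and LOC_Os07g13440 with 115 FPKM from 153.

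Over the whole set, PB replicate 2 exceeded every other library more than 100 times at 113 of the 170 genes. That comparison includes PB replicate 1, whose level the selection bounds. At 14 genes all 16 libraries outside PB were listed at 0 FPKM. Only 7 genes reached 5 FPKM in any of the 16, and 6 of the 170 were higher in another library than in PB replicate 2. In each of the 16 libraries, between 3 and 8 of the 170 genes reached 1 FPKM.

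How unusual such a pair of libraries is in this series was shown by applying the same bounds to the other 8 groups. The count of genes on in 1 library and off in the other lay between 2 and 109, with a median of 9. Callus+AM came closest, with 109 genes on in replicate 2 only and 9 on in replicate 1 only. Callus gave 57 and 29, and Ag gave 3 on in replicate 2 only and 26 on in replicate 1 only. In PB itself the reverse list, on in replicate 1 only, held 6 genes. The AMT+Ab list of genes on in replicate 1 shared 1 gene with the 170 (12.5% of that list and 0.588% of the 170), and the AMT+Hb list of replicate 1 also shared 1 (11.1% of that list). No gene of the 170 was in any other list.

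**Figure D2:**
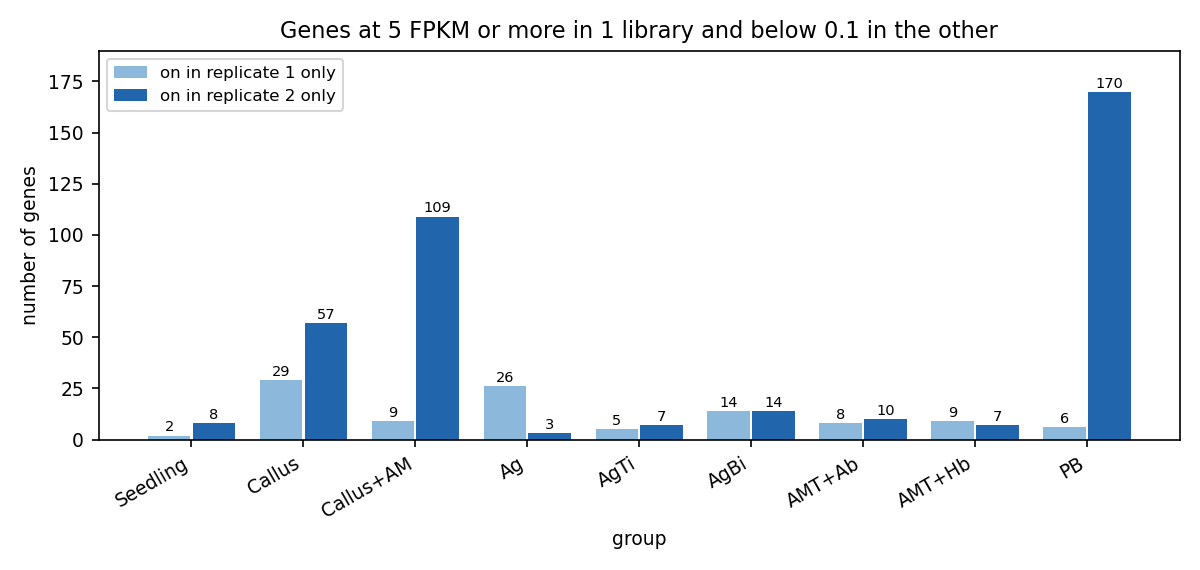
Number of genes at 5 FPKM or more in 1 library of a group and below 0.1 FPKM in the other, for each of the 9 groups; light bars are genes on in replicate 1 only and dark bars genes on in replicate 2 only. PB stands at 170 and 6, and the next highest bar is Callus+AM at 109.

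A stricter bound also gave its highest count in PB replicate 2. Genes at 5 FPKM or more in a single library and below 0.1 FPKM in all 17 others numbered 80 in PB replicate 2. The other 17 libraries had between 0 and 14 such genes, and 10 of them had 0.

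Although nearly silent, the 156 genes below 1 FPKM outside PB left counts that differed between libraries of similar total counts. At least 1 count was found for 50% of them in Callus+AM replicate 2, 41.0% in Ag replicate 2 and 43.6% in AgTi replicate 2. The share was 47.4% in AgBi replicate 2, 49.4% in AMT+Ab replicate 2 and 47.4% in AMT+Hb replicate 2. In the replicate 1 libraries of these 6 groups it was 17.3% to 23.7%. The replicate 2 shares lay above the replicate 1 shares in all 6 groups, by 22.4 to 30.8 percentage points, and the ranges of both sets of libraries did not overlap.

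Seedling and Callus, which were sequenced more deeply, did not show this gap, and whether depth plays a part was not tested. The share was 19.9% and 23.1% in the 2 Seedling libraries and 19.2% and 22.4% in the 2 Callus libraries, a difference of 3.21 percentage points in each group. Across all 55986 genes, the share above 0 counts was 53.8% to 56.4% in these 16 libraries, and replicate 2 differed from replicate 1 by between -1.46 and 1.52 percentage points. PB replicate 1 is left out of this comparison because the selection itself bounds its counts.

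**Figure D3:**
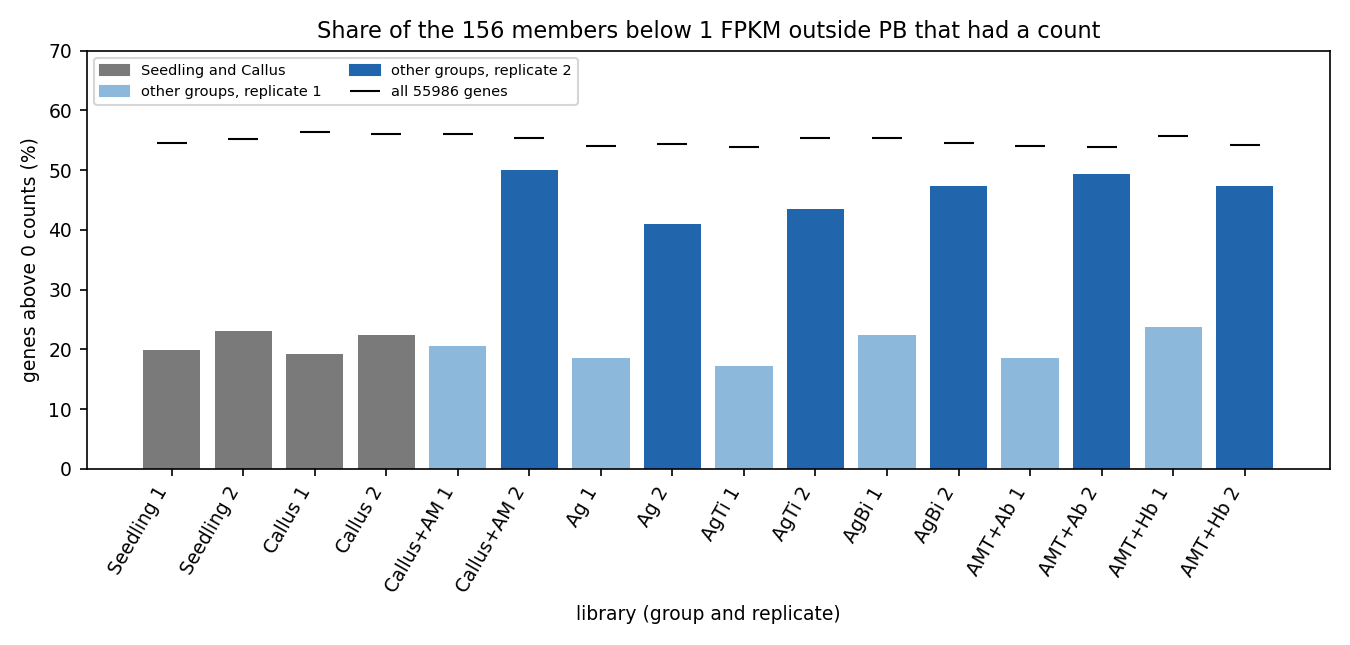
Share of the 156 genes below 1 FPKM outside PB that had a count, by library, as bars; grey is Seedling and Callus, light blue replicate 1 and dark blue replicate 2 of 6 other groups. The black dashes give the share of all 55986 genes above 0 counts; the dark blue bars lie between 41.0% and 50% and the others between 17.3% and 23.7%, while the dashes stay between 53.8% and 56.4%.

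The traces were small. Summed over the 156 genes, the 6 replicate 2 libraries held 146 to 232 counts each, or 13.7 to 21.8 counts for every 10000 that PB replicate 2 held. The other 10 libraries held 68 to 133 counts, or 6.39 to 12.5 per 10000. Within the 6 replicate 2 libraries, the levels followed those of PB replicate 2 to some extent, with Spearman correlations of 0.430 to 0.522 over the 156 genes. The correlations were 0.0233 to 0.218 in the other 10. These are descriptions over genes with mostly 0 counts that were chosen for their PB replicate 2 level, not over replicates.

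The gap was also seen among the 10 genes highest in PB replicate 2. The highest, LOC_Os01g70440, is not among the 156, because it stood at 1.09 to 1.70 FPKM in the 6 replicate 2 libraries. It had 19 counts in Callus+AM, 19 in Ag, 22 in AgTi, 15 in AgBi, 18 in AMT+Ab and 23 in AMT+Hb, all in replicate 2. It had 0 counts in all 6 replicate 1 libraries of these groups, in the 4 Seedling and Callus libraries and in PB replicate 1. The replicate 2 counts of the gene thus lay within a narrow range across 6 differently treated groups. Against a limit of 3 counts over the 6 replicate 1 libraries, its level was at least 37.3-fold higher in replicate 2.

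LOC_Os01g41140 had 12, 7, 4, 6, 7 and 3 counts in the replicate 2 libraries, in the same order of groups, and 0 in replicate 1, Seedling and Callus. LOC_Os01g41170 had 9, 8, 5, 6, 3 and 11 counts in replicate 2, and likewise 0 in those 10 libraries. Their levels were at least 12.5-fold and 13.5-fold higher in replicate 2. LOC_Os03g56940 had 21 counts over the 6 replicate 2 libraries and 3 over the 6 replicate 1 libraries. LOC_Os05g46530 had 25 and 2, with 2 more in Seedling and Callus. LOC_Os11g37280 had 29 and 9, and 7 of the 9 were in Ag replicate 1, where replicate 2 also held 7.

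Set against their PB replicate 2 counts, these 6 genes left traces of similar proportion. The mean over the 6 replicate 2 libraries was 6.27 to 11.5 counts per 10000 counts in PB replicate 2. LOC_Os01g70440 stood at 7.68 per 10000, with a 95% exact Poisson interval of 6.34 to 9.21 that covers counting error only. At 153 to 262 counts in PB replicate 2, the other 4 of the 10 highest genes had 1 to 3 counts in the 6 replicate 2 libraries and 0 in the 10 others.

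Whether replicate 2 exceeded replicate 1 was tested over the 6 groups, a comparison chosen after these traces were seen. In a two-sided exact permutation test of the paired counts scaled to library size, run for each of the 10 genes, 5 genes gave p = 0.03125, the smallest p that 6 pairs allow. They were LOC_Os01g70440, LOC_Os01g41140, LOC_Os01g41170, LOC_Os03g56940 and LOC_Os05g46530, each higher in replicate 2 in 6 of 6 groups. LOC_Os11g37280 was higher in 5 of 6 groups (exact p = 0.0625). None of the 10 genes passed 0.05 after Benjamini-Hochberg adjustment for the 10 exact tests, where the lowest adjusted p was 0.0625. That outcome was fixed in advance. With counts in only 1 to 3 of the 6 pairs, 4 of the 10 genes could not reach the smallest p. At most 6 could, which leaves every adjusted p above 0.05.

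Across all genes, the same comparison fitted with edgeR called 1 of 26128 genes, a background of 0.00383%, and none of the 14 members it could test. The other 156 members did not pass the filter on low counts. Of the 14, 4 had an unadjusted p below 0.05, all higher in replicate 2, against 0.938% of all genes tested in either direction. Of the 4, LOC_Os01g70440, LOC_Os01g41140 and LOC_Os01g41170 had 0 counts in replicate 1. The remaining gene, LOC_Os11g37280, had more than 1 count in replicate 1 in Ag only. All 4 thus passed the filter through replicate 2, and they are no support beyond the counts given above. LOC_Os01g70440 had a log2 fold change of 7.27 (SE 0.789, edgeR adjusted p = 1), although a group at 0 makes this fitted value depend on the prior count. DESeq2, which tested 39591 genes, called 2 genes, of which 1 was a member, LOC_Os01g70440 (adjusted p = 0.000226). This gene had 0 counts in replicate 1 and the comparison was chosen after its traces were seen. The DESeq2 call is therefore no support beyond those counts either. By DESeq2, which gave 155 members an adjusted p, 6 members had an unadjusted p below 0.05, all higher in replicate 2. The share over all genes was 0.884% in either direction. Since the comparison was chosen after the traces of the members were seen, these 6 members are no support either. The labels name no sequencing run, date or lane, and what the 6 replicate 2 libraries share with PB replicate 2 beyond the number was not tested.

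**Figure D4:**
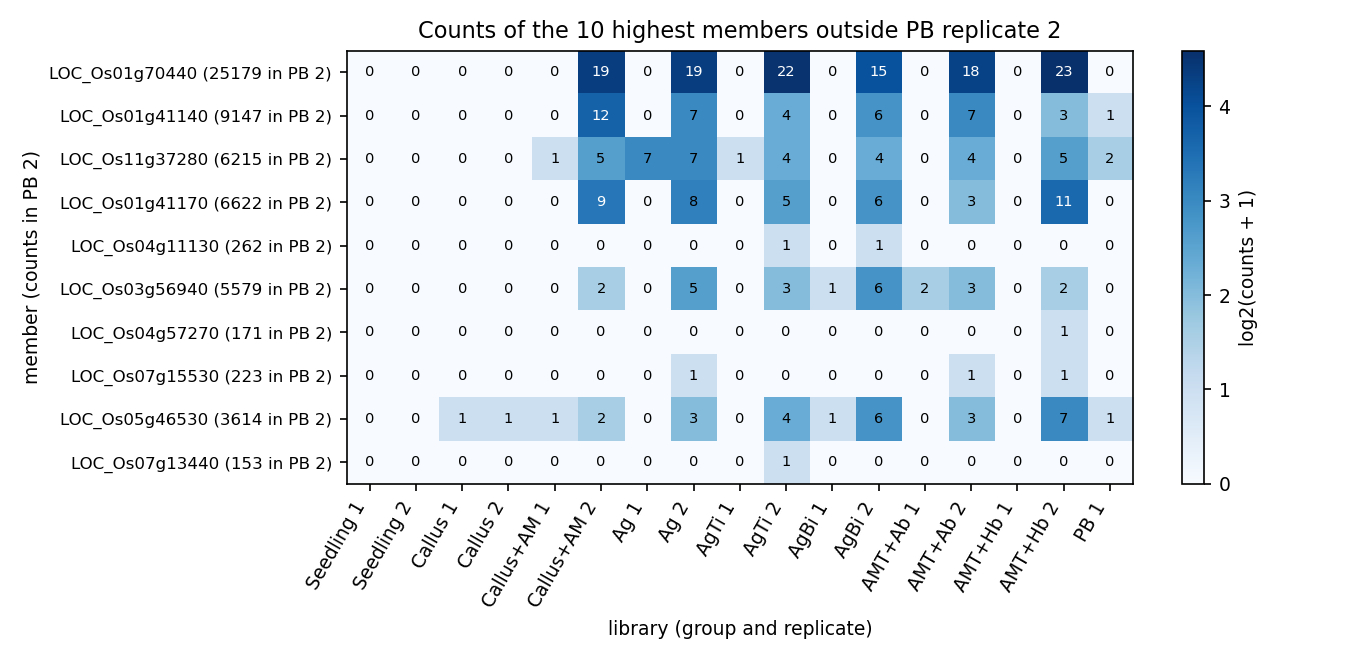
Counts of the 10 genes highest in PB replicate 2 (rows, with their PB replicate 2 counts in brackets) in the other 17 libraries (columns); the number in each cell is the count and the shade is log2(counts + 1). LOC_Os01g70440 has 15 to 23 counts in the replicate 2 libraries of the 6 groups other than Seedling, Callus and PB and 0 in every other column.

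A minority of 14 genes reached 1 FPKM in at least 1 library outside PB, and 5 of these did so in 9 or more libraries. One of the 14 was LOC_Os01g70440, described above, which did so in 6. LOC_Os10g01500 on chromosome 10 was erratic within groups. It stood at 99.3 FPKM in Callus replicate 1 and 2.31 in replicate 2, at 158 FPKM in AMT+Hb replicate 1 and 0 in replicate 2, and at 85.3 FPKM in PB replicate 2. In the other 12 libraries outside PB it lay between 1.41 and 11.3 FPKM. Since 85.3 FPKM corresponded to 46 counts, a level near 2 FPKM rests on 1 or 2 counts.

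LOC_Os08g11490 on chromosome 8 was present in all 16 libraries outside PB, from 1.96 FPKM in Seedling replicate 2 to 26.1 FPKM in AMT+Hb replicate 1. Its 7.27 FPKM in PB replicate 2 came from 3 counts. LOC_Os08g35200, also on chromosome 8, was highest in Seedling at 16.2 and 18.02 FPKM and lay between 1.36 and 9.27 FPKM in the other 14 libraries. LOC_Os11g24430 on chromosome 11 reached 24.2 FPKM in Ag replicate 1 and was at 0 in both AgBi libraries. LOC_Os06g40390 on chromosome 6 was at 0 in 10 of the 16 libraries and reached 7.32 FPKM in AMT+Ab replicate 1, from 2 counts. For these low counts, absence from PB replicate 1 cannot be told from sampling.

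Independent of the PB libraries, the members were compared between groups in a fit of the 16 other libraries. It tested 25764 genes, among them 10 of the 170. The other 160 did not pass the filter on low counts, so the counts below speak for the 10 only. With the 7 groups other than PB together against Seedling, 2 of the 10 were higher and 1 lower at an edgeR adjusted p below 0.05. Of all genes tested, 36.6% were called there, 16.5% higher and 20.1% lower. Callus against Seedling gave 1 higher and 1 lower, with 18.4% of all genes called, 8.71% higher and 9.67% lower. Callus+AM, Ag, AgTi and AMT+Hb each gave 2 higher and 1 lower. All genes called made up 30.3% in Callus+AM (16.6% higher, 13.8% lower), 30.1% in Ag (15.4% and 14.7%), 30.7% in AgTi (14.7% and 16%) and 33.9% in AMT+Hb (17.4% and 16.5%). AMT+Ab gave 1 higher and 1 lower, with 29.6% of all genes called (14.7% and 14.9%). AgBi gave 1 lower, with 21.7% called (11% and 10.7%). A count of 1 to 3 among 10 is close to or below these shares, and all comparisons share the 2 Seedling libraries. The genes called higher, LOC_Os04g41640, LOC_Os05g24770 and LOC_Os03g12180, had 0 or 1 count in Seedling. They passed the filter through the regenerated groups alone, so only the higher direction was open to them. Their calls, folds and p-values below are therefore descriptions.

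LOC_Os01g60080 on chromosome 1 was the gene called lower each time. It stood at 2.90 and 3.99 FPKM in Seedling, at 0.0397 and 0.0693 in Callus, and between 0.0305 and 0.371 FPKM in the 12 libraries of the other 6 groups. Seedling and the 14 regenerated libraries did not overlap. Callus was the group nearest to Seedling in depth, though shallower, and whether depth plays a part was not tested. The log2 fold change of the 7 groups together was -5.05 (SE 0.348, edgeR adjusted p = 1.78e-06), and that of single groups ran from -3.34 in AMT+Hb to -6.20 in Callus+AM. In AMT+Ab the libraries held 0.0506 and 0.338 FPKM, and the log2 fold change of -4.21 became -3.38 without replicate 1 and -6.04 without replicate 2. With the PB libraries in the fit the calls in Ag and AMT+Hb ended (edgeR adjusted p 0.0572 and 0.0686). In PB replicate 2 the gene stood at 13.2 FPKM, above Seedling.

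LOC_Os04g41640 on chromosome 4 stood at 46.8 and 11.9 FPKM in AMT+Hb, against 0.0616 and 0 in Seedling and at most 1.55 FPKM in the other 12 libraries outside PB. In PB replicate 2 it stood at 19.0 FPKM. With 1 count in Seedling, the ratio of AMT+Hb to Seedling was 1587-fold (95% Poisson interval 285 to 62690, edgeR adjusted p = 0.00166). Its fitted log2 fold change of 9.60 was 11.88 and 8.72 without Seedling replicate 1 and 2, and 8.30 and 10.27 without AMT+Hb replicate 1 and 2. The gene was also called in the 7 groups together (edgeR adjusted p = 0.0292), which no longer held with Seedling replicate 1 or 2 left out (edgeR adjusted p 0.0998 and 0.204) or with the PB libraries in the fit (edgeR adjusted p = 0.103).

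LOC_Os05g24770 on chromosome 5 had 0 counts in Seedling. It stood at 0.638 and 1.37 FPKM in Ag, at 0.905 and 1.35 FPKM in AgTi, and at 2.19 and 0.0257 FPKM in Callus+AM. It lay between 0.0181 and 0.317 FPKM in the other 8 libraries outside Seedling and PB. The group levels were at least 44.8-fold, 51.5-fold and 54.3-fold higher than Seedling in Ag, AgTi and Callus+AM (edgeR adjusted p 0.0165, 0.0143 and 0.0151). All 3 calls were lost when either Seedling library was left out (edgeR adjusted p 0.068 to 0.0861) and with the PB libraries in the fit (edgeR adjusted p 0.0511 to 0.0569). The call in Callus+AM also ended without Callus+AM replicate 1 (log2 fold change 3.14, against 8.45 with it). In Ag the fitted log2 fold change of 8.28 was 7.60 without Ag replicate 2.

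LOC_Os03g12180 on chromosome 3 was called higher in every comparison but AgBi, at levels below 0.5 FPKM. Its Seedling libraries held 0 and 1 count, and the 14 other libraries outside PB 2 to 45 counts. The 7 groups together stood 43.6-fold over Seedling (95% Poisson interval 7.83 to 1723, edgeR adjusted p = 0.0101). Without Seedling replicate 1 every call but that in AgTi ended (edgeR adjusted p 0.0923 to 0.189), and with the PB libraries in the fit every call ended (edgeR adjusted p 0.0521 to 0.246). Without Seedling replicate 2 the calls in Callus, Ag, AMT+Ab and AMT+Hb ended (edgeR adjusted p 0.0511 to 0.0961). Calls also ended without Callus replicate 1 in Callus (edgeR adjusted p = 0.09), Callus+AM replicate 2 in Callus+AM (0.0828), Ag replicate 1 in Ag (0.19) and AMT+Hb replicate 2 in AMT+Hb (0.0649). The call in AMT+Ab, at an edgeR adjusted p of 0.0496, ended without 12 of the 16 libraries in turn.

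**Figure D5:**
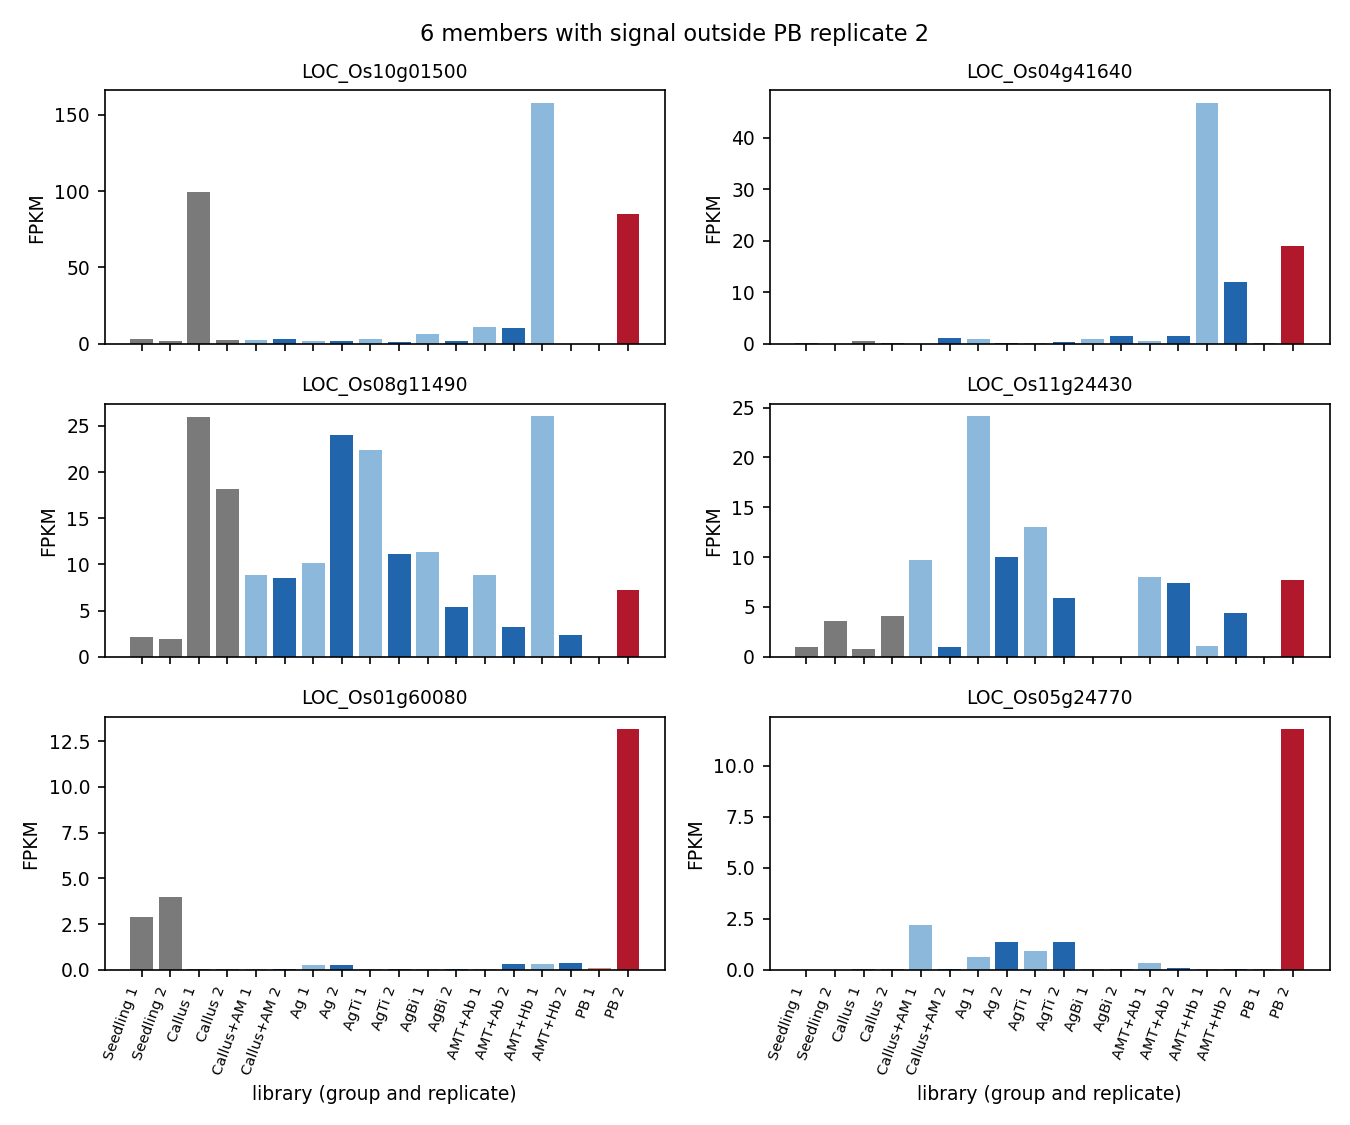
FPKM by library for 6 genes with signal outside PB replicate 2, on axes that start at 0 and differ between panels; grey is Seedling and Callus, light blue replicate 1 and dark blue replicate 2 of 6 other groups, light red PB replicate 1 and dark red PB replicate 2. LOC_Os01g60080 shows 2.90 and 3.99 FPKM in Seedling, and LOC_Os04g41640 shows 46.8 and 11.9 FPKM in AMT+Hb.

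PB against Seedling, which holds the values used for selection, is given as a description. In the fit of all 18 libraries, 19 of the 170 passed the filter on low counts, and 14 of them were called, all higher, a direction that the selection fixes (19.7% of all genes tested were called higher). Leaving out a PB library keeps the library that the selection set high or low, whose spread is then assumed to be that of the other groups. Without PB replicate 1, 153 members were called higher, and without PB replicate 2, 2 were called lower, both as descriptions of the selection. Without Seedling replicate 1, 2 members were called, and without Seedling replicate 2, 4.

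The 170 genes lay on all 12 chromosomes. Chromosome 11 held 9.41% of them, against 7.43% of all listed genes and 4.45% of the genes at 5 FPKM or more in PB replicate 2. Chromosome 3 held 6.47%, against 9.95% and 14.3%. Against all listed genes, chromosome 12 departed most, at 2.94% against 7.17%. Chromosomes 2 and 6 held 12.9% and 11.2%, against 9.60% and 8.41% of all listed genes. None of these departures was tested. Some were neighbours, as 38 members fell into 14 runs of genes at most 5 places apart in identifier order. The longest run held 6 genes on chromosome 6, from LOC_Os06g45150 at 12.9 FPKM to LOC_Os06g45230 at 38.1 FPKM in PB replicate 2. A run of 4 on chromosome 2 comprised LOC_Os02g03480 at 14.7, LOC_Os02g03500 at 81.6, LOC_Os02g03510 at 63.0 and LOC_Os02g03520 at 37.1 FPKM. On chromosome 1, LOC_Os01g41140 and LOC_Os01g41170 ran together with LOC_Os01g41180, which stood at 6.34 FPKM. How far neighbouring genes share reads through sequence likeness cannot be told from these tables.

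Genes with a pattern like the set could not be picked out meaningfully over the 16 libraries, because the median of the 170 was at 0 FPKM in 14 of them. The 5 genes with the highest Pearson correlation with that median over the 16 libraries were LOC_Os08g34510, LOC_Os01g49770, LOC_Os01g45700, LOC_Os01g60800 and LOC_Os01g15970, at 0.745 to 0.775.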

How the data were processed

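For 18 RNA-seq libraries, the authors deposited estimated counts and FPKM values of each gene, in separate tables. TopHat, Cuffnorm and Cuffdiff are listed per the submitters' processing notes. Build, aligner settings, strand use and versions: not given in the sources used here. Because 0.707% of the deposited estimated counts had decimals, counts were rounded before testing. The 18 bisulfite samples were not used here.

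Members were genes with FPKM of at least 5 in PB_2 and below 0.1 in PB_1; a limit of 300 was not reached. The members and lists were chosen with earlier results of these data known. Identifiers were matched to the RefSeq table of assembly ASM3414082v1, which paired 0 of 170 members and 1 of 55986 genes with a name.

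Counts were tested with edgeR 4.0.16 in R 4.3.3 (filterByExpr by group, TMM scaling, robust quasi-likelihood fit, Benjamini-Hochberg over all genes tested, calls below 0.05). The fit used the 16 libraries outside PB, so that the selection did not enter it, with a common dispersion of 0.146 and 8 residual degrees of freedom. PB against Seedling used all 18 libraries. Replicate 2 against replicate 1 used 12 libraries with a term per group and a count minimum of 3 in filterByExpr, and was added after seeing the data. The scripts were tested on simulated data. Each SE given with an edgeR value was worked back from the test, as the absolute log2 fold change over the square root of its quasi-likelihood F. Folds against 0 counts are lower bounds against 3 counts over the group, and 95% Poisson intervals cover counting error only.

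Alternatives were relative log expression factors, no filter, DESeq2 1.42.0, limma 3.58.1 on log2(FPKM + 1) and log2(FPKM + 0.1) (mean FPKM of 1 or more), all 18 libraries, only the groups compared, the replicate block, other bounds and leaving out each library. Named genes were the 10 highest members in PB_2, the 6 highest in another library, those nearest the bounds and at most 2 called higher and 2 lower per comparison. Genes of neighbour runs, of other lists and of low counts were named after their values were seen.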

Additional observations from a re-analysis of the deposited data

How the results depend on the processing

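With a bound of 2 FPKM in PB replicate 2 the set reached its limit of 300 genes (313 without it), and with 10 FPKM it held 106. Counts of members called moved as follows. The share of all genes called was not worked out for these alternatives, and the number of members tested changes with filter and tool. These moves are therefore not a result about the members. Without a filter on low counts they were 9 for the 7 groups together, 7 in Callus+AM, AgTi and AMT+Hb, 6 in Ag and 22 in PB. DESeq2 gave 9 together, 5 in Callus+AM, 6 in AgTi, 2 in AgBi, 93 in PB and 1 in replicate 2 against replicate 1. On log2(FPKM + 1) limma gave 1 in Callus+AM and AMT+Ab, and on log2(FPKM + 0.1) 1 in Callus, Callus+AM and AMT+Ab and 3 in AgBi. With all 18 libraries there was 1 in Callus, Callus+AM, AgTi, AMT+Ab and AMT+Hb and 0 in Ag. With only the groups compared there were 6 in Callus, 1 in Callus+AM, 2 in AgBi and 5 in AMT+Hb. Members at 0 in PB replicate 1 gave 0 calls in all 8 comparisons outside PB, by edgeR. With the replicate block AMT+Ab gave 1, PB 11, and no other count moved by over 1.5 times. In a check of the groups outside PB, 6 of 28 group pairs had a correlation of deviations over 0.1 (-0.479 to 0.267). Most group pairs thus showed no pairing by replicate number in that check. It included Seedling and Callus, which lack the gap in traces, and most members have too few counts to weigh in it. Whether replicate 2 libraries share the traces was therefore not tested by it. Leaving out 1 library at a time gave 1 to 6 calls together and in Callus+AM, Ag and AMT+Ab, 2 to 6 in AgTi and AMT+Hb, 1 to 3 in Callus, 1 to 2 in AgBi, 2 to 153 in PB, and 0 in replicate 2 against replicate 1. The cause of these shifts was not tested. The 8 named genes with fitted values kept their direction in the alternatives that gave them one; limma gave one for LOC_Os04g41640 only. LOC_Os03g12180 lost its call in AMT+Ab with DESeq2 (adjusted p = 0.0725) and with the replicate block (edgeR adjusted p = 0.0647) and its call in Callus+AM with only those groups (0.0777), and LOC_Os04g41640 lost its call together without a filter (0.0672). Most members have too few counts outside PB replicate 2 to pass the edgeR filter.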

Other observations

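The traces were not limited to the 170 genes. Genes at 20 FPKM or more in PB replicate 2 and at no more than 1% of that level in every library outside PB were picked after the values were seen. They comprised 54 members and 12 genes that were no members because PB replicate 1 was at or above 0.1 FPKM. The 12 held 9.45 to 13.7 counts per 10000 of their PB replicate 2 counts in the replicate 2 libraries of the 6 groups other than Seedling, Callus and PB. They held 1.05 to 4.2 in the other 10 libraries outside PB and 354 in PB replicate 1. The 54 members held 8.58 to 11.4 per 10000 in the 6 replicate 2 libraries and 0.419 to 1.78 in the other 10.

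The 6 genes on in PB replicate 1 and off in replicate 2 were named after their values were seen, and each rested on 3 to 121 counts. LOC_Os01g50880 stood at 11.4 FPKM from 4 counts and was at 0 in the other 17 libraries. LOC_Os07g43230 stood at 6.14 FPKM from 121 counts and LOC_Os08g27210 at 5.16 FPKM from 104, and both had at most 2 counts in any other library. LOC_Os04g33430 stood at 6.19 FPKM in PB replicate 1 and at 5.86 FPKM in AMT+Hb replicate 1, and was at 0 in AMT+Hb replicate 2, Seedling and Callus. It also stood at 1.82 and 2.23 FPKM in Ag, at 3.41 and 1.91 in AgTi and at 3.53 in Callus+AM replicate 1. In the remaining libraries it was at most 0.427 FPKM.

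Of the 109 genes on in Callus+AM replicate 2 only, 24 reached 5 FPKM in PB replicate 2 and 43 in PB replicate 1. Of the 57 on in Callus replicate 2 only, 39 did in each PB library. Over all 55986 genes, 14188 reached 5 FPKM in PB replicate 2 and 14028 in PB replicate 1.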
